A study of Mus musculus with 8 samples.

Results

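The acyl-CoA thioesterase cluster consists of 6 neighbouring genes, Acot1 to Acot6, out of 21887 protein-coding genes that RefSeq lists in mouse build GRCm38.p6. The genes lie on chromosome 12 between 83987861 and 84109783 (counted from 1), a span of 122 kb, in the order Acot2, Acot1, Acot4, Acot3, Acot5 and Acot6. The members were taken by position, and peaks were read over the span and over a window with 100 kb added on each side (chr12:83887861-84209783). The cluster as a whole was chosen from earlier results on the peaks of these same lists, so its values are descriptions and no test is given.

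CUT&Tag (antibody-tethered transposase cutting of chromatin) was used to map histone H3 acetylation at lysine 27 (H3K27ac) and at lysine 9 (H3K9ac) in crypts of the small intestine from male C57BL/6J mice aged 9 weeks. The 4 groups of each mark were Fed without tetracycline, Fast without tetracycline, Fed with tetracycline and Fast with tetracycline, where fasting lasted 24 h and tetracycline was given for 21 days. Each group was 1 sample with 2 peak lists, numbered 1 and 2, and the labels do not say whether the lists came from different mice. The layout lets Fast be compared with Fed crypts, with and without the antibiotic. The crypts were shaken free and made into single cells with trypsin, so cells other than epithelium can be present.

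Acyl-CoA thioesterases split acyl-CoA into a free fatty acid and coenzyme A, and so set the balance between activated and free acyl chains. In mouse, ACOT1 works in the cytosol, ACOT2 in mitochondria and ACOT3, ACOT4, ACOT5 and ACOT6 in peroxisomes, with preferences that range from long chains to succinyl-CoA for ACOT4 and branched chains for ACOT6. Several of the genes are known targets of the fatty acid receptor PPAR alpha in fasted liver, and both acetylation marks are typical of active promoters, H3K27ac also of active enhancers.

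The starts of the 5 members with an entry in the RefSeq promoter table are all on the plus strand. The promoter windows of 4 members are printed, 250 bases before to 50 after the start, because 3 of them (Acot2, Acot1, Acot4) carried peaks and the one of Acot3 carried none. Capitals mark, on either strand, the nuclear receptor core AGGTCA, the box CCAAT bound by NF-Y, the E-box CACGTG and the TATA-type box TATAAA. The windows are chr12:83987611-83987910 for Acot2, chr12:84009252-84009551 for Acot1, chr12:84038129-84038428 for Acot4 and chr12:84051894-84052193 for Acot3.
Acot2: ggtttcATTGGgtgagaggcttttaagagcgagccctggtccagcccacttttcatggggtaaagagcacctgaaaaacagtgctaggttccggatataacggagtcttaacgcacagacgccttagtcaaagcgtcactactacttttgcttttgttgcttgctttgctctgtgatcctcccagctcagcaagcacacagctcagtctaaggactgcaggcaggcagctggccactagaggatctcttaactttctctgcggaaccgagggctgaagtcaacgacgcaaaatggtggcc
Acot1: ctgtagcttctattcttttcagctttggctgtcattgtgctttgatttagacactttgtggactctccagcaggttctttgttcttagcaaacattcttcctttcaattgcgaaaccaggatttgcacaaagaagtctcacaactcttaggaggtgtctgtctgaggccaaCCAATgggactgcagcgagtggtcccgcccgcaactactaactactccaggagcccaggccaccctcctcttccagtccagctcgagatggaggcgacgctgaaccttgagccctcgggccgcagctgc
Acot4: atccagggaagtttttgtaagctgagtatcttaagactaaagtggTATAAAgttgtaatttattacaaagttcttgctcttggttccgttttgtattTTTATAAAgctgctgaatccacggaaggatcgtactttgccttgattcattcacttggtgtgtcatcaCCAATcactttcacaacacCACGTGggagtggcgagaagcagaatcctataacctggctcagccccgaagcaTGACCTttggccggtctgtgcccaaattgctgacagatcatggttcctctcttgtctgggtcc
Acot3: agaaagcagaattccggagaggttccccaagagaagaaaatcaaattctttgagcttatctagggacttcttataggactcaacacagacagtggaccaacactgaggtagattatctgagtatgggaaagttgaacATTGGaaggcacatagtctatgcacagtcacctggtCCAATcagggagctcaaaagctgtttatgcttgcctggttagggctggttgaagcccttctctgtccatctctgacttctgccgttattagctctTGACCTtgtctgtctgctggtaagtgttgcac

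The core AGGTCA, read by many nuclear receptors, had no match in the windows of Acot2 and Acot1, 1 match in Acot4 at position -13 from the start, 1 in Acot3 and 2 in Acot5. Of 17492 promoters of protein-coding genes, 14.5% held it. A direct repeat of these letters with 1 base between the copies had no match in any of the 5 windows and occurred in 0.0515% of promoters. CCAAT, present in 39.0% of promoters, was matched in all 5 windows, at -79 in Acot1 and -85 in Acot4. CACGTG, present in 7.90% of promoters, and TATAAA, in 13.3%, were matched only in Acot4 among the 5, the latter 3 times with 2 of the matches overlapping. The dinucleotide CG occurred 10 times in the Acot2 window, 9 in Acot1, 7 in Acot4, 8 in Acot5 and 2 in Acot3, against a median of 13 over all promoters. Aligned in pairs over their whole length, the 5 windows were 47.9% to 52.0% identical.

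H3K27ac lists held between 32392 and 68545 peaks and H3K9ac lists between 17249 and 99050. Their names describe the data as downsampled without giving read totals, so the depth behind them is unknown. Peaks of exactly 200 bp were frequent in 4 lists, all Fast: for H3K9ac 17.2% of list 1 without tetracycline and 20.3% and 31.2% of lists 1 and 2 with it, and for H3K27ac 11.8% of list 1 without it. No other list exceeded 1.73%. H3K27ac lay within 1 kb of the start of all 10 epithelial marker genes in every list, and of between 0 and 2 of 8 immune and 0 and 1 of 8 stromal, vessel and muscle markers. Of the immune genes, Ptprc (CD45) had H3K27ac at its start in 4 Fast lists and no Fed list. Cd3e, a T cell receptor component, had it in 2 Fed lists and no Fast list, Cd8a in 2 Fed and 3 Fast lists and Cd79a in 1 Fast list, while Cd4, Itgam and Lyz2 had it in none. Summed over the 8 immune genes, H3K27ac covered 1.18 to 6.76 kb in Fed lists and 4.43 to 6.55 kb in Fast lists, and the part of immune cells in the results below was not tested.

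**Figure D1:**
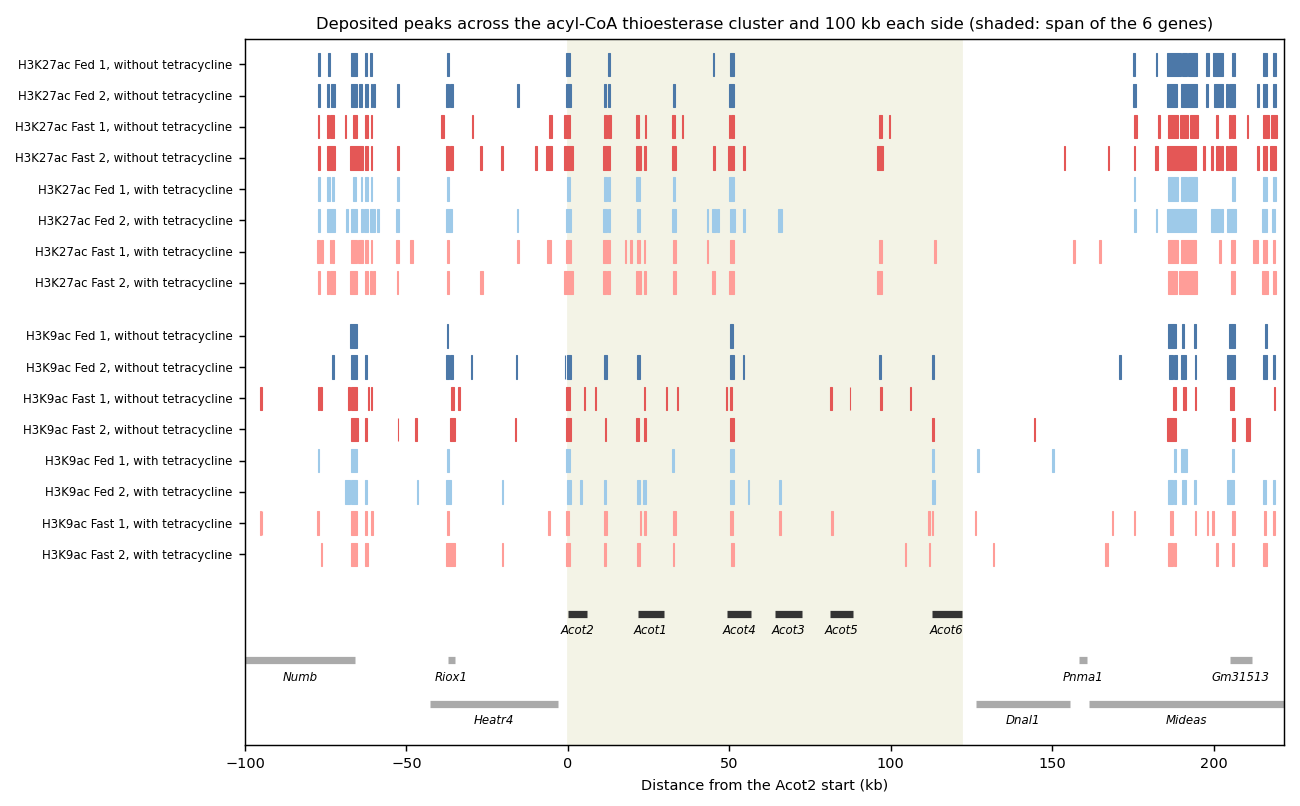
Peaks of the 16 lists (rows) across the cluster and 100 kb on each side, drawn to scale against distance from the Acot2 start in kb, with protein-coding genes below (members dark, neighbours grey). Peaks recur at the starts of Acot2 and Acot4 in nearly every row, the stretch with Acot3, Acot5 and Acot6 is almost empty for H3K27ac, and a peak between Acot5 and Acot6 is drawn in the 4 H3K27ac Fast rows and in no H3K27ac Fed row.

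At the starts of the 6 genes, marking fell into distinct levels. Marked starts are those with any peak base no more than 1 kb away. For Acot6, whose strand is not given in the tables used, either gene end counted. Acot4 was marked in all 16 lists, Acot2 in 15, Acot1 in 11, Acot6 in 7, Acot5 in 2 and Acot3 in 1. Over all protein-coding genes, 33.6% had H3K27ac and 21.0% had H3K9ac at the start in all 8 lists of the mark. In each H3K27ac list between 2 and 4 of the 6 members were marked, and in each H3K9ac list between 1 and 5. Over all genes, a single list marked 42.4% to 50.4% of starts with H3K27ac and 41.8% to 51.3% with H3K9ac.

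**Figure D2:**
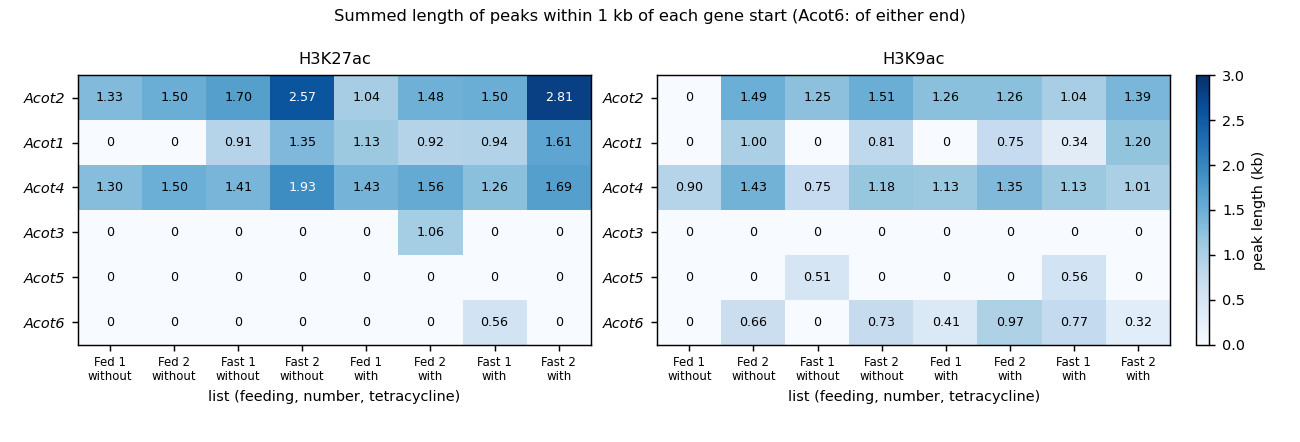
Summed length, in kb, of the peaks within 1 kb of each member's start (either end for Acot6), with 1 row per gene and 1 column per list, for H3K27ac (left) and H3K9ac (right). Acot1 has no H3K27ac peak in the 2 Fed lists without tetracycline and one in each of the other 6 lists, and the Acot3 and Acot5 rows are almost entirely 0.

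Acot2, which encodes the mitochondrial enzyme (chr12:83987861-83993877), had an H3K27ac peak at its start in all 8 lists. Without tetracycline the peak was 1335 and 1504 bp long in Fed lists 1 and 2 and 1697 and 2569 bp in Fast lists 1 and 2. With tetracycline it was 1045 and 1476 bp in Fed and 1504 and 2809 bp in Fast lists. Every Fast value was at or above every Fed value, the shortest Fast peak and the longest Fed peak being equal. Over the 5774 genes with H3K27ac peaks at the start in all 8 lists, peak length in every Fast list was strictly above every Fed list for 5.32%. Acot2, with its tie, was not among them. The median length over the 5774 genes ran from 1348.5 to 1892.5 bp between lists. The Acot2 peak ended 1485 and 1480 bp after the start in the Fast lists numbered 2 and 621 to 927 bp after it in the other 6 lists. The printed 300-base window of Acot2 lay wholly inside the H3K27ac peak in all 8 lists and inside the H3K9ac peak in 7.

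H3K9ac at the Acot2 start was missing in Fed list 1 without tetracycline only, the list with the fewest peaks of the 16. Where present, the peak ended between 440 and 940 bp after the start. The highest-scoring H3K9ac peak there ranked between the 36.5th and the 95.2nd percentile of its list by the authors' score, a value with no stated unit that is used here within a list only. For H3K27ac these percentiles ran from 64.9 to 91.7.

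Acot1, which encodes the cytosolic enzyme (chr12:84009502-84017670), had H3K27ac at its start in 6 of the 8 lists. Its start had no peak in Fed lists 1 and 2 without tetracycline, and peaks of 910 and 1354 bp in Fast lists 1 and 2 without tetracycline. With tetracycline the peaks measured 1126 and 920 bp in Fed and 936 and 1606 bp in Fast lists. The start thus had no H3K27ac peak in untreated Fed crypts and had one in all 3 other groups, with Fed and Fast lengths overlapping under tetracycline. When only peaks in the upper 0.5 by score were kept, the Acot1 start region was in 4 Fast lists and no Fed list. With an equal number of top-scoring peaks per list, or with peaks at least 500 bp wide, it stayed in 2 Fed and 4 Fast lists. Its peak ranked at the 25.1st and 49.0th percentile in the 2 Fed lists that had it and between the 62.4th and the 68.6th in Fast lists. The lists differ in their number of peaks, so these percentiles do not give a difference between Fed and Fast crypts.

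Over the whole of Acot1 with 1 kb on each side, H3K27ac covered 0, 0, 1126 and 920 bp in Fed lists and 1291, 2109, 1515 and 2198 bp in Fast lists, each in the order without 1, without 2, with 1 and with 2. The lowest Fast value was above the highest Fed value, which held for Acot1 alone among the 5 members with any H3K27ac and for 4.78% of the 16118 genes with H3K27ac in a list. The reverse order was found for no member and for 0.385% of those genes. Mean covered length was 511.5 bp in Fed and 1778.25 bp in Fast lists, Fast minus Fed 1266.75 bp. The median difference over all those genes was 174 bp higher in Fast lists, and over the 5 members it was 157 bp. The other 4 members, in bp and as Fast minus Fed, differed by 683.25 (Acot2), 157.25 (Acot4), 138.75 (Acot6) and -264.75 (Acot3), and Acot5 was not covered in any H3K27ac list.

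Besides the start, Acot1 carried a second peak inside the gene. A region 755 bp long, chr12:84011301-84012055, centred 2.18 kb after the Acot1 start, had an H3K27ac peak in all 4 Fast lists and no Fed list. Its length was 381 and 755 bp in Fast lists 1 and 2 without tetracycline and 579 and 592 bp with it. Whether it is exonic or intronic was not analysed here. These were weak peaks, at the 1.64th, 45.3rd, 5.61st and 21.6th percentile of their lists in the same order. H3K9ac peaks overlapped this region in 3 Fast lists and 1 Fed list.

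H3K9ac at the Acot1 start was found in 2 Fed and 3 Fast lists. Peak lengths there were 998 bp in Fed list 2 and 813 bp in Fast list 2 without tetracycline, 749 bp in Fed list 2 with it, and 337 and 1198 bp in Fast lists 1 and 2 with it. All 4 lists numbered 2 had the peak, and 1 of the 4 lists numbered 1 had it.

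Acot4, which encodes a peroxisomal succinyl-CoA thioesterase (chr12:84037254-84044723, start site at 84038379), was marked by both marks in every list. Its H3K27ac peaks measured 1299 and 1498 bp in Fed and 1406 and 1932 bp in Fast lists without tetracycline, and 1429 and 1556 bp in Fed and 1261 and 1688 bp in Fast lists with it. Fed and Fast lengths overlapped in both tetracycline states. H3K9ac peaks at the same start measured 898, 1431, 1130 and 1346 bp in Fed lists and 749, 1183, 1132 and 1007 bp in Fast lists, again with overlap. The region also lies within the long noncoding gene Gm40474 of the RefSeq table, so the peak cannot be assigned to Acot4 alone.

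Acot3 and Acot5, which encode peroxisomal enzymes for long and medium chains, were nearly unmarked. Acot3 (chr12:84052144-84060400) had a single peak within 1 kb of its start, 1059 bp of H3K27ac in Fed list 2 with tetracycline. It ranked at the 19.6th percentile of that list, was centred 1.47 kb after the start and also overlapped Gm40474. H3K9ac peaks of 593 and 545 bp overlapped it in Fed list 2 and Fast list 1, both with tetracycline. Acot5 (chr12:84069077-84076024) had H3K9ac peaks of 514 and 561 bp at its start in the Fast lists numbered 1, without and with tetracycline. Those are lists in which 17.2% and 20.3% of all peaks were 200 bp wide. For comparison, 40.9% of all protein-coding genes had no H3K27ac peak at the start in any list.

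Like Acot5, Acot6 (chr12:84100654-84109783) carried H3K9ac with little or no H3K27ac, but in more lists. H3K9ac lay near its lower end in 3 Fed and 3 Fast lists, with peak lengths of 658 bp in Fed list 2 and 730 bp in Fast list 2 without tetracycline, 414 and 971 bp in Fed lists with it, and 770 and 317 bp in Fast lists with it. A single H3K27ac peak of 555 bp was found, in Fast list 1 with tetracycline. Fed and Fast values overlapped, and no member showed H3K9ac covered bases in every Fast list above every Fed list, against 2.62% of 18744 genes.

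Between the genes, the clearest pattern was an H3K27ac region after Acot5. The region chr12:84083547-84085306, 1760 bp long, lies 7.52 kb beyond the Acot5 end and 15.3 kb before the lower end of Acot6. It had a peak in all 4 Fast lists, of 1072 and 1760 bp without and 748 and 1418 bp with tetracycline, and in none of the 4 Fed lists. The Fast peaks ranked at the 49.9th, 64.2nd, 25.3rd and 46.1st percentile of their lists. H3K9ac overlapped it in 1 Fed and 1 Fast list.

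This region and the one inside Acot1 were 2 of the 17 H3K27ac regions in the span, where a region is the union of overlapping peaks of the 8 lists. That pattern, every Fast list and no Fed list, held for 0.400% of the 112301 H3K27ac regions of the genome. No region of the span had the reverse pattern, which 0.0837% of all regions had. Neither region held the pattern among stronger peaks. When each list was cut to an equal number of top-scoring peaks, both were in 2 Fast lists and no Fed list. Within the upper 0.5 by score the region inside Acot1 was in no list and the one after Acot5 in 1 Fast list, while the Acot1 start and chr12:84020178-84021313 took on the pattern. With peaks at least 500 bp wide the region after Acot5 alone kept it. In untreated crypts 3 of the 17 regions, these and the Acot1 start, had peaks in both Fast lists but in neither of the Fed ones, against 3.10% of all regions. Of the 54 regions in the window with its flanks, 4 were in at least 2 Fast and no Fed lists (4.64% of all regions) and 1 in at least 2 Fed and no Fast lists (2.03%). For H3K9ac, 0 of the 22 regions in the span were in every Fast list and no Fed list, against 0.0189% of 295928 regions.

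Other H3K27ac regions of the span were shared between feeding states. The region chr12:83998609-84001136, centred at -9.63 kb from the Acot1 start, had peaks in all 8 lists, covering 527 and 1370 bp in Fed and 1756 and 2188 bp in Fast lists without tetracycline. With it the region had 1378 and 2022 bp in Fed and 2047 and 1917 bp in Fast lists, which overlap. The region chr12:84020178-84021313, 11.2 kb after the Acot1 start and within Gm40474, had peaks in 3 Fed and 4 Fast lists. The missing list was Fed 1 without tetracycline. The region chr12:84032559-84033630, before Acot4, was found in 2 Fed and 2 Fast lists. Of the 17 regions, 9 were in more Fast than Fed lists, 2 in more Fed than Fast lists and 6 in equal numbers. Genome-wide, 59.4% of H3K27ac regions were in more Fast and 18.0% in more Fed lists, so the share leaning to Fast in the span, 52.9%, was near that of all regions. Of all regions, 14.6% were in all 8 lists and 53.1% in 1 list, against 3 and 7 of the 17.

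**Figure D3:**
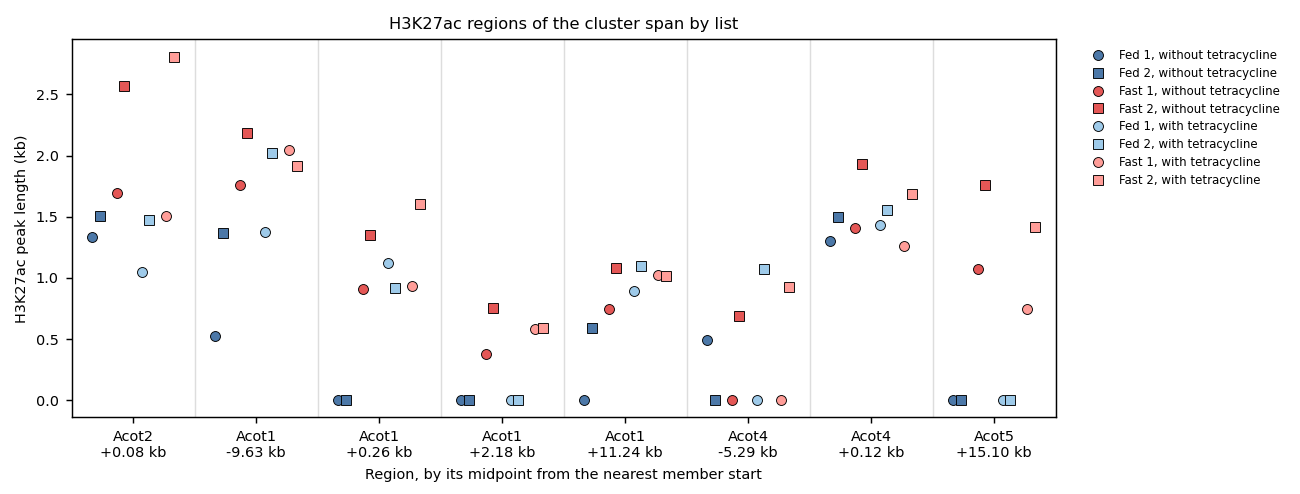
Length of H3K27ac peaks, in kb, in each of the 8 regions of the span found in 4 or more lists, placed by the distance of their midpoint from the nearest member start, with 1 point per list (circle list 1, square list 2). The regions at Acot1 +2.18 kb and Acot5 +15.10 kb have points above 0 for the 4 Fast lists only, and the one at Acot1 +0.26 kb lacks the 2 Fed lists without tetracycline.

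H3K9ac regions recurred at the starts of some members and also lay elsewhere in the span. Beside those at Acot2, Acot1, Acot4 and Acot6, the region chr12:83998956-83999854 between Acot2 and Acot1 was found in 2 Fed and 3 Fast lists, and chr12:84011253-84012001 inside Acot1 in 1 Fed and 3 Fast lists. Regions seen in at least 2 Fast lists and no Fed list were chr12:84069071-84069866 at the Acot5 start and chr12:84099463-84099931, centred at -0.96 kb from the lower end of Acot6. They were 2 of 22 regions, where 3.10% of all H3K9ac regions had that pattern, and each was in exactly 2 lists. Of the 22, 1 appeared in all 8 lists and 11 appeared once, where all H3K9ac regions gave 1.52% and 84.4%.

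Added up over the span, H3K27ac covered 3.10 and 4.30 kb in Fed and 7.40 and 11.9 kb in Fast lists 1 and 2 without tetracycline. With tetracycline it covered 5.49 and 10.05 kb in Fed and 9.35 and 10.6 kb in Fast lists. Both untreated Fed lists were below all 6 others, and under tetracycline the Fed and Fast lists overlapped. Means were 5.73 kb in Fed and 9.82 kb in Fast lists, a difference of 4.08 kb (SD of lists within a group 2.35 kb, pooled over 4 groups of 2 lists), made up of 5.94 kb without and 2.23 kb with tetracycline. Lists 1 alone gave 4.08 kb and lists 2 alone 4.09 kb. Cutting each list to an equal number of top-scoring peaks gave 3.12 kb.

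Lists also differed in their total covered length, which for H3K27ac ran from 33.1 to 56.0 Mb in Fed and from 48.2 to 64.2 Mb in Fast lists. Expressed per Mb that a list covered anywhere, the span held 82.3 and 80.9 bases of H3K27ac in Fed and 139 and 185 in Fast lists without tetracycline, and 166 and 179 in Fed and 183 and 221 in Fast lists with it. On this scale Fast lists were above Fed lists within each tetracycline state. Across states they overlapped, since both Fed lists with tetracycline were above Fast list 1 without it. The flanks of 100 kb were measured in kb for comparison. On the right, which holds most of Mideas, H3K27ac covered a mean of 16.5 kb in Fed and 15.9 kb in Fast lists, and on the left, with Numb and Heatr4, 9.01 and 11.7 kb (pooled SD between lists 3.18 and 4.18 kb). The span held 0.137 and 0.146 times the covered length of its flanks in Fed and 0.306 and 0.326 times in Fast lists without tetracycline, and 0.307, 0.313, 0.35 and 0.457 times with it, in the same order.

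**Figure D4:**
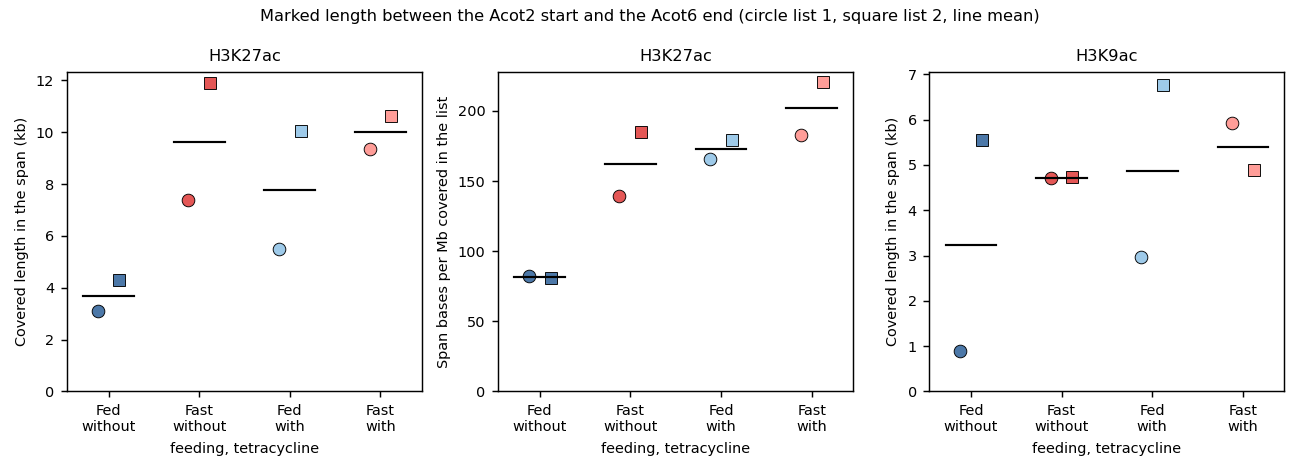
Length covered by peaks over the span of the 6 genes in each group, for H3K27ac in kb (left), for H3K27ac in bases per Mb covered in the list (middle) and for H3K9ac in kb (right), with a circle for list 1, a square for list 2 and a line at their mean. For H3K27ac the 2 Fed lists without tetracycline, at 3.10 and 4.30 kb, are the lowest of the 8, and for H3K9ac the Fed lists enclose the Fast lists.

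Over the window with its flanks the H3K27ac difference, Fast minus Fed, was 6.22 kb, smaller than the pooled SD between lists of 9.39 kb, and 2.34 kb when lists were cut to an equal number of top-scoring peaks. For H3K9ac the span had 0.898 and 5.56 kb in Fed and 4.72 and 4.72 kb in Fast lists without tetracycline, and 2.97 and 6.76 kb in Fed and 5.92 and 4.88 kb in Fast lists with it. The Fed lists lay on both sides of the Fast lists. The mean difference of 1.011 kb was below the pooled SD of 2.15 kb, and it was 3.38 kb over lists 1 and -1.36 kb over lists 2. Over the window it was 0.528 kb (pooled SD 5.53 kb).

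Tetracycline was compared in the same way. In Fed crypts, H3K27ac over the span was 4.07 kb higher with tetracycline than without, and in Fast crypts 0.35 kb higher. Averaged over both states the difference was 2.21 kb, and it turned to -0.042 kb when peaks in the upper 0.5 by score were kept. Both Fed lists with tetracycline (5.49 and 10.05 kb) were above both without it (3.10 and 4.30 kb), and they included the Acot1 start, which the untreated Fed lists lacked. The Fast minus Fed difference with tetracycline less that without it was -3.72 kb, which was not tested. For H3K9ac the span was 1.64 kb higher with tetracycline in Fed and 0.675 kb higher in Fast crypts, within the pooled SD of 2.15 kb. Over the window the difference, with minus without, was -1.02 kb for H3K27ac and 1.36 kb for H3K9ac, both well within the spread between lists.

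The number of the 6 member starts marked by H3K27ac was 2 and 2 in Fed and 3 and 3 in Fast lists without tetracycline, and 3 and 4 in Fed and 4 and 3 in Fast lists with it. Its mean was 0.5 genes higher in Fast lists, equal to the pooled SD of 0.5. Over all genes the marked share in the same order was 44.7% and 49.8% in Fed and 48.1% and 50.2% in Fast lists without tetracycline, and 44.1% and 49.0% in Fed and 50.4% and 42.4% in Fast lists with it. For H3K9ac the numbers were 1 and 4 in Fed and 3 and 4 in Fast lists without tetracycline, and 3 and 4 in Fed and 5 and 4 in Fast lists with it, a mean difference of 1 gene (pooled SD 1.22). No member start was marked in all 4 Fast lists and no Fed list by either mark, a pattern found for 0.0777% of genes with H3K27ac and 0.0685% with H3K9ac.

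Other genes that handle acyl-CoA gave a backdrop. Of 10 further thioesterase genes (Acot7 to Acot13, Them4, Them5 and Baat), 6 had H3K27ac at the start in all 8 lists, 2 in none, and 2 in more Fast than Fed lists. For H3K9ac 2 were marked in more Fast and 3 in more Fed lists, among them Acot7, a cytosolic thioesterase best known from brain, with 3 Fed and no Fast lists. Of 25 genes of fatty acid breakdown and PPAR targets, 19 had H3K27ac in all 8 lists, 5 in more Fast lists and none in more Fed lists, against 11.6% and 9.70% of all genes. For H3K9ac 6 of the 25 were marked in more Fast and 6 in more Fed lists, where all genes gave 20.5% and 21.0%. Acaa2 and Acsl1, a mitochondrial thiolase and a long-chain acyl-CoA synthetase, each had H3K9ac in 4 Fed and 1 Fast lists.

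Genes whose covered length followed that of the span most closely over the 8 lists of a mark were ranked by Pearson's r of log2 (bases + 100), as a description. For H3K27ac they were Dhx40 (r = 0.984), Pxmp4 (0.964), Zfp160 (0.962), Klf15 (0.954) and Gask1b (0.951) among 12775 genes compared, of which 76 had r over 0.9 and whose median r was 0.33. For H3K9ac they were Gtf3c6 (r = 0.995), Arid1b (0.994), Eva1c (0.990), Tpcn2 (0.988) and Hic2 (0.986) among 14595 genes, of which 506 had r over 0.9, with a median of 0.41. All these values share the breadth of the lists: the span's covered length had r = 0.64 with the total covered length of the H3K27ac lists and 0.84 with that of the H3K9ac lists. For H3K9ac the span was lowest in Fed list 1 without tetracycline, at 0.898 kb, and next lowest at 2.97 kb. How far the H3K9ac r values rest on that 1 list was not tested.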

How the data were processed

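The authors called peaks separately for each of the 16 lists and deposited, per peak, its position, a MACS peak name and a score whose unit is not stated. Per the submitters' processing notes, FastQC, Bowtie and SAMtools were used with build mm10. Their roles, the settings of the peak caller, how IgG served as control, and the handling of reads that map to several copies, as paralogous Acot genes could give, are not given in the sources used here. Peaks on chromosomes 1 to 19, X and Y were used, with overlaps of at least 1 bp.

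Genes, starts and promoter sequences came from RefSeq tables for GRCm38.p6, the assembly also called mm10. Of 21887 protein-coding genes, 17492 had a start in the promoter table, among them 5 of the 6 members. The other 4395 were scored at either end. Covered length was the union of peaks. Regions were unions of overlapping peaks of the 8 lists of a mark. The members and lists were chosen with earlier results of these data known. Named were all members, the window's genes, regions in 4 or more lists or in at least 2 lists of 1 feeding state only, genes of the fixed lists whose start differed by 3 or more lists, and the 5 genes most like the span per mark. Not every gene that these rules name is reported here. Alternatives kept the upper 0.5 of peaks by score, equal numbers of top-scoring peaks (32392 for H3K27ac and 17249 for H3K9ac), peaks at least 500 bp wide, either list number alone, other windows and other distances. Counting was tested on simulated lists. Python 3.11.15, numpy 2.4.6, pandas 2.3.3, Biopython 1.88 and matplotlib 3.10.9 were used.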

Additional observations from a re-analysis of the deposited data

How the results depend on the processing

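No paired analysis was possible because the results come from no test. The results on the span alone and on its regions, with their alternatives, were added after seeing the data. Of 78 alternative values, 56 kept their direction within the spread between lists (for counts, within 1.5 times), 15 changed sign and 7 moved further. With the same number of top-scoring peaks, H3K9ac Fast minus Fed was -1.53 kb in the window, -0.22 kb in the span and -0.75 member starts, tetracycline gave 0.099 kb (H3K27ac) and -0.28 kb (H3K9ac) in the window, and 0 H3K27ac regions of the span were in every Fast and no Fed list. The upper 0.5 by score gave -0.277 kb (H3K9ac, window), 1.25 (H3K27ac) and -1 (H3K9ac) member starts, and -0.042 kb for tetracycline on H3K27ac in the span. Peaks at least 500 bp wide gave -1.68 kb (window) and -0.014 kb (span) for H3K9ac and 1 such H3K27ac region. For tetracycline on H3K27ac, the span without flanks gave 2.21 kb and flanks of 50 kb gave 1.51 kb. Over either list number alone, H3K9ac Fast minus Fed ran from -4.80 to 5.86 kb (window), from -1.36 to 3.38 kb (span) and from 0 to 2 member starts, H3K27ac from 3.20 to 9.24 kb (window) and from 0 to 1 member starts. Tetracycline on H3K27ac in the window then ran from -3.09 to 1.05 kb, and H3K9ac regions in every Fast and no Fed list from 0 to 2. The upper 0.5 by score also gave 2 H3K27ac regions in every Fast and no Fed list, but not the same 2. The cause was not tested. H3K27ac in the span, Fast minus Fed, stayed between 3.12 and 4.25 kb under the 5 alternatives run for it. Depth is unknown, so an absent peak does not show an absent mark.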

Other observations

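The neighbours of the cluster gave a further view of the same lists. Numb, an inhibitor of Notch signalling whose marked start region is centred at -66.3 kb from the Acot2 start, had H3K27ac and H3K9ac at its start in all 8 lists of each mark, as had Mideas, a protein linked to histone deacetylase complexes, on the other side. The longest H3K27ac region of the window, chr12:84173381-84182877 within Mideas, covered between 7750 and 8924 bp in all 8 lists. Riox1, which encodes a histone demethylase, was marked by H3K27ac in 4 Fed and 3 Fast lists, and Dnal1, an axonemal dynein light chain, in none. Pnma1 had no peak of either mark.

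H3K27ac regions in at least 2 lists of 1 feeding state only were few in the flanks and went in both directions. Of 37 H3K27ac regions there, 2 were in at least 2 Fast and no Fed lists, against 4.64% of all regions. The reverse held for 1 of them, against 2.03% of all regions. A further 16 of the 37 were in 1 list only, against 53.1% of all regions. Of 40 H3K9ac regions in the flanks, 3 were in at least 2 Fast and no Fed lists, against 3.10% of all regions. The reverse held for 0 of the 40, against 1.01% of all regions. H3K27ac in Heatr4, centred at -5.93 kb from the Acot2 start (chr12:83980994-83982878), was in 3 Fast lists, with 908 and 1885 bp without and 1346 bp with tetracycline, and in no Fed list. A region in the same gene, chr12:83960765-83961427, was in 2 Fast lists and no Fed list. Its peaks were weak, at percentiles 5.01 (Fast list 2 without tetracycline) and 0.689 (Fast list 2 with it). In Mideas, chr12:84185390-84186424 had H3K27ac in 2 Fed lists, both without tetracycline, and in no Fast list, and H3K9ac at chr12:84177683-84179533 was in 4 Fed lists and 1 Fast list. Over the right flank H3K9ac covered 6.13 and 9.35 kb in Fed and 3.66 and 4.90 kb in Fast lists without tetracycline, and 4.41 and 7.999 kb in Fed and 5.59 and 5.56 kb in Fast lists with it, so Fed was higher without tetracycline and the groups overlapped with it.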
